A study of Mus musculus with 6 samples.

Results

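Gene expression in the ileum of mice fed BF flour was set against that of mice fed cellulose, gene by gene, on 1 array per diet. The genes described were those with exactly 1 gene symbol listed for their probe set and a mean of at least 6 on the log2 scale over both ileum arrays, read from 1 probe set per gene. This rule kept 7920 of the 22180 genes on the array, and 14260 genes were under it. The BF group received a high-fat diet with 50% of its energy from fat in which BF flour, milled from the hulless barley Beau Fiber, gave the 5% dietary fiber and beta-glucan made up 2.4% of the diet. The control group received a diet with the same share of energy from fat, with cellulose as the source of its 5% dietary fiber and no beta-glucan. BF flour took the place of part of the corn starch and of some lard as well as of the cellulose, so the diets differed in more than their fiber. Both groups were male C57BL/6J mice bought at 4 weeks of age, kept on a chow diet first, then fed for 92 days and fasted for 8 h before they were killed. RNA of the 10 mice of each group was mixed in equal parts, and 100 ng of each mixture was labelled for a GeneChip Mouse Gene 2.0 ST array. Liver and epididymal fat of the same groups were measured on 4 more arrays. The labels of the fat array of the BF group conflict, since its source name gives the cellulose diet while its description and its dietary fiber entry give barley. The description was followed, and the sign of every fat difference rests on that.

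With 1 pooled array per group no difference could be tested, and the pool does not show how many of the 10 mice shared a difference. The values are expression levels on the log2 scale, made with robust multichip analysis, so a difference of 1 stands for a doubling. A gene was called higher above 1.3 fold (0.38 on the log2 scale) and lower below 0.77 fold (-0.38), the limits used in the study. The median level of all probe sets was 4.39 on the BF array and 4.42 on the control array. Over the 7920 genes the median BF minus control difference was 0.01, the central 95% of the differences ran between -0.31 and 0.39, and the arrays correlated at 0.989 across genes, which are not independent replicates. The markers of the distal ileum were high in both groups: Fabp6, the ileal bile acid-binding protein, was at 12.10 in the BF group and 12.03 in the control group, and Slc10a2, the ileal bile acid transporter, was at 10.58 on BF and 10.79 on control.

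The ileum is the last stretch of the small intestine. Its enterocytes take up bile acids and the nutrients that the upper gut has left, its crypts hold stem cells and Paneth cells, and its wall carries Peyer's patches, in which B cells gather in follicles next to T cells and follicular dendritic cells. Fiber that escapes digestion is fermented by bacteria further down, and the ileal epithelium adjusts its surface sugars, antimicrobial proteins and transporters to microbes and to the food in the lumen.

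In the BF group 213 of the 7920 genes (2.69%) were higher than in the control group and 82 (1.04%) were lower, while 7625 (96.3%) lay between the limits. Only 10 genes were more than 2 fold higher and 2 more than 2 fold lower. The genes furthest above the control group fell into a few recognizable kinds: immunoglobulin gene segments, genes of the epithelial surface such as Fut2 and Chst4, nutrient-handling genes of the upper small intestine such as Lct, Fabp1 and Slc2a2, and B cell genes. The genes furthest below included Rabggtb, the small RNA Rnu3a, and Car3, Lpl and Fabp4 of the adipocyte list. Some genes past a limit reached the level of 6 on 1 array only, the one where they were high. Ighg3, Ebf1, Ltb and Pla2g4c, for example, were under 6 on the control array, and Rabggtb and Lpl on the BF array. The spread narrowed with the level. From 6 to 7 on the log2 scale the central 95% of 3052 genes lay between -0.34 and 0.44, and from 10 upward that of 431 genes lay between -0.21 and 0.28. Of the genes within 0.02 of the level limit, the 55 just inside it had a median difference of 0.01 and the 61 just outside it had one of -0.04.

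**Figure D1:**
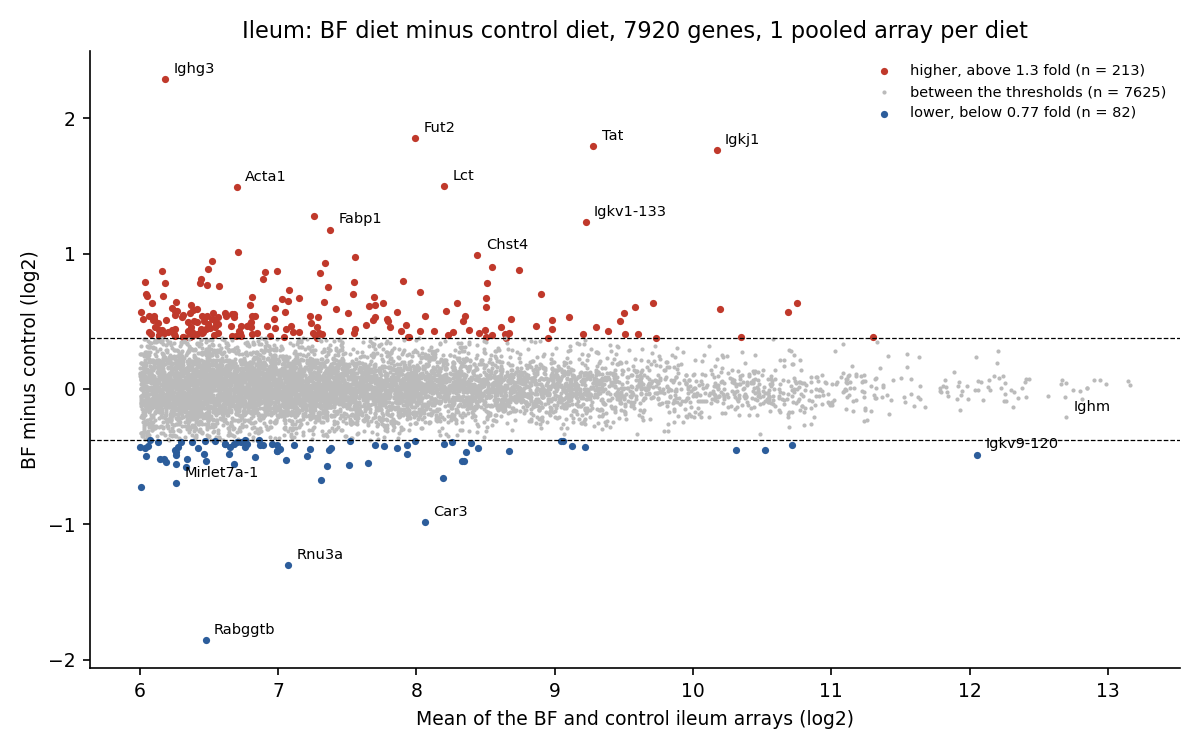
The BF minus control difference (log2) is plotted against the mean of both ileum arrays (log2) for 7920 genes, each a point, with dashed lines at 1.3 fold and 0.77 fold. The 213 higher genes reach 2.29 at Ighg3, the 82 lower genes reach -1.85 at Rabggtb, and 268 of the 295 genes past a limit have a mean under 9.

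Fut2 was the protein-coding gene furthest above the control group. It encodes the fucosyltransferase that puts the terminal fucose on the glycans of the intestinal surface. Its level was 8.92 in the BF group and 7.06 in the control group, a difference of 1.85 or 3.62 fold. Nos2, the inducible nitric oxide synthase, stood at 9.78 in the BF group and 9.22 in the control group, 1.48 fold higher. These were the 2 of 11 measured genes of the fucosylation and epithelial oxidase list past a limit, and the list's median difference was 0.08. The enzymes that supply or use fucose elsewhere lay near 0, with differences of -0.03 for Gmds, 0.11 for Fut8 and 0.20 for Fut4. Duox2, the dual oxidase of the epithelium, was at 9.88 in the BF group and 9.56 in the control group, inside the limits.

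Other enzymes that act on glycans or on sialic acid were among the 30 genes furthest above. Chst4, a sulfotransferase of mucin-type and lymph node vessel glycans, was at 8.94 in the BF group and 7.94 in the control group, 1.99 fold higher. B3gnt7, which extends sulfated sugar chains, was at 7.30 in the BF group and 6.49 in the control group, and Npl, which breaks down sialic acid, was at 7.21 on BF and 6.20 on control. A list of glycan and sialic acid genes drawn up after these values were seen held 35 measured genes, of which 7 were higher and none lower. Its median difference was 0.02, so the higher members stood apart from the middle of the list. The 3 higher members not yet named were St6gal1, which adds sialic acid, B4galnt4 and Chst11. The goblet cell markers stayed between the limits, with none of 17 past them. The main mucin Muc2 differed by -0.08 and Fcgbp by 0.02.

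Genes induced in the epithelium by microbes and by cytokines of the IL-22 type gave a divided picture. Of 16 measured members of the antimicrobial and IL-22 response list, 4 were higher, none was lower and the median was 0.16. Besides Fut2, they were Socs3, the feedback inhibitor of STAT3 signalling, at 7.80 in the BF group and 6.87 in the control group (1.90 fold), the lectin Reg3a at 8.30 on BF and 7.50 on control (1.74 fold), and the cytokine Il18 at 8.13 on BF and 7.75 on control (1.302 fold). The most abundant antimicrobial lectins lay between the limits. Reg3b was at 12.72 in the BF group and 12.68 in the control group, Reg3g at 12.45 on BF and 12.37 on control, and Il22 itself was close to the bottom of the scale at 1.94 on BF and 1.65 on control. Among Paneth cell markers only Pla2g2a, a phospholipase A2 gene, was higher, with 8.69 in the BF group and 8.31 in the control group. At 1.305 fold it was just past the limit, and an RNA level does not show whether working enzyme is made. All 14 measured Paneth markers had a difference above 0, against 4104 of all 7920 genes, and the median was 0.12. The measured alpha-defensins of the list, Defa21, Defa22, Defa24 and Defa26, differed by 0.06, 0.03, 0.08 and 0.14. A pair of alpha-defensins outside the list, picked after their values were seen, were past the limit, Defa39 at 11.49 on BF and 11.11 on control and Defa33 at 9.60 on BF and 9.17 on control. Members of this family resemble each other, so a probe set may read more than its own gene.

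Several sensors and signalling proteins that stand upstream of NF-kB were higher as well. Myd88, the adaptor of most Toll-like receptors, was at 8.38 in the BF group and 7.67 in the control group (1.64 fold). Tifa, an adaptor for bacterial sugar sensing, was at 6.85 in the BF group and 6.04 in the control group, and Card14, a scaffold of epithelial NF-kB signalling, was at 6.99 on BF and 6.05 on control. In the list for beta-glucan recognition and the inflammasome, 3 of 13 measured genes (Myd88, Il18 and Casp4) were higher and none was lower, with a median of 0.20. The beta-glucan receptor Clec7a, under the level limit, read 6.19 in the BF group and 5.76 in the control group. A list of innate sensing and NF-kB genes written after the values were seen had 10 of 25 measured genes higher, none lower and a median of 0.28, with Sting1 at 7.11 in the BF group and 6.48 in the control group and Gadd45b at 7.15 on BF and 6.47 on control.

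Promoter sequences of RefSeq on GRCm38.p6, from 250 bases before to 50 bases after the annotated start, were searched for a pair of motifs. The first, TTCNNNGAA, reads the same on both strands and is the core of sites bound by STAT proteins. The second, ATGCAAAT on either strand, is the octamer bound by Oct factors, and the product of Pou2af1, a gene 1.72 fold higher in the BF group, is a partner of these factors in B cells. The letters of one motif do not contain the other. Of the 213 higher genes 155 had a promoter entry, and 17 of them (11%) held TTCNNNGAA, against 7.87% of the 6279 measured genes with an entry and 9.55% of all 27025 genes with one. The octamer stood in 11 of the 155 (7.10%), against 1.67% of the measured genes and 1.97% of all genes. A gene could have several promoter windows and counted if any of them held the motif. The number of windows per gene was not compared between the sets, so these shares were not adjusted for it. Of the 55 lower genes with an entry, 4 held the first motif and 1 held the second. None of the 9 measured B cell list genes with an entry held either. Of the 12 measured genes with an entry in the antimicrobial and IL-22 response list, 4 (33.3%) held TTCNNNGAA, namely Socs3, Reg3b, Pigr and Ang4, of which only Socs3 was past a limit, and 1 held the octamer. A match is a run of letters and says nothing on binding. The 3 windows below are shown because Socs3 is the higher gene of the STAT3 pathway, Il18 holds the octamer on both strands and Srgn is a higher white blood cell gene with it. The capitals mark the motif. Socs3 is on the minus strand at chr11:117969317-117969616 with its match starting 154 bases before the start, Il18 on the plus strand at chr9:50554450-50554749 with matches 37 and 16 bases before the start, and Srgn on the minus strand at chr10:62507708-62508007 with its match 249 bases before the start.
Socs3: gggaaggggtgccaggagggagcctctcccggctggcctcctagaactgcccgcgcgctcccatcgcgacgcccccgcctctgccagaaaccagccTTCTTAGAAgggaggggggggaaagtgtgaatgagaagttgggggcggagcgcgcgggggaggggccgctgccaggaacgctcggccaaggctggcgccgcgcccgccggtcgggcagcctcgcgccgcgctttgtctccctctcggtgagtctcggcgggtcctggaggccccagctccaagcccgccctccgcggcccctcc
Il18: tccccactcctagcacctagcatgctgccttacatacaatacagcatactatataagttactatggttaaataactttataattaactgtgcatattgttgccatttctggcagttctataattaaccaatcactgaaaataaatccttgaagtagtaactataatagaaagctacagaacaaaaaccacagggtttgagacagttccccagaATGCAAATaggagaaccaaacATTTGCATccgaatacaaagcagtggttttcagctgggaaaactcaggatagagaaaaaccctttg
Srgn: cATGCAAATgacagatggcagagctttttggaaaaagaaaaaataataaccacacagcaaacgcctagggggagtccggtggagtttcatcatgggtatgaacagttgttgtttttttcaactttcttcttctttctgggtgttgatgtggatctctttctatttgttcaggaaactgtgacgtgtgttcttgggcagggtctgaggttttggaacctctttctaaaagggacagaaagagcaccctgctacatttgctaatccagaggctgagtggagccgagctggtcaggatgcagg

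**Figure D2:**
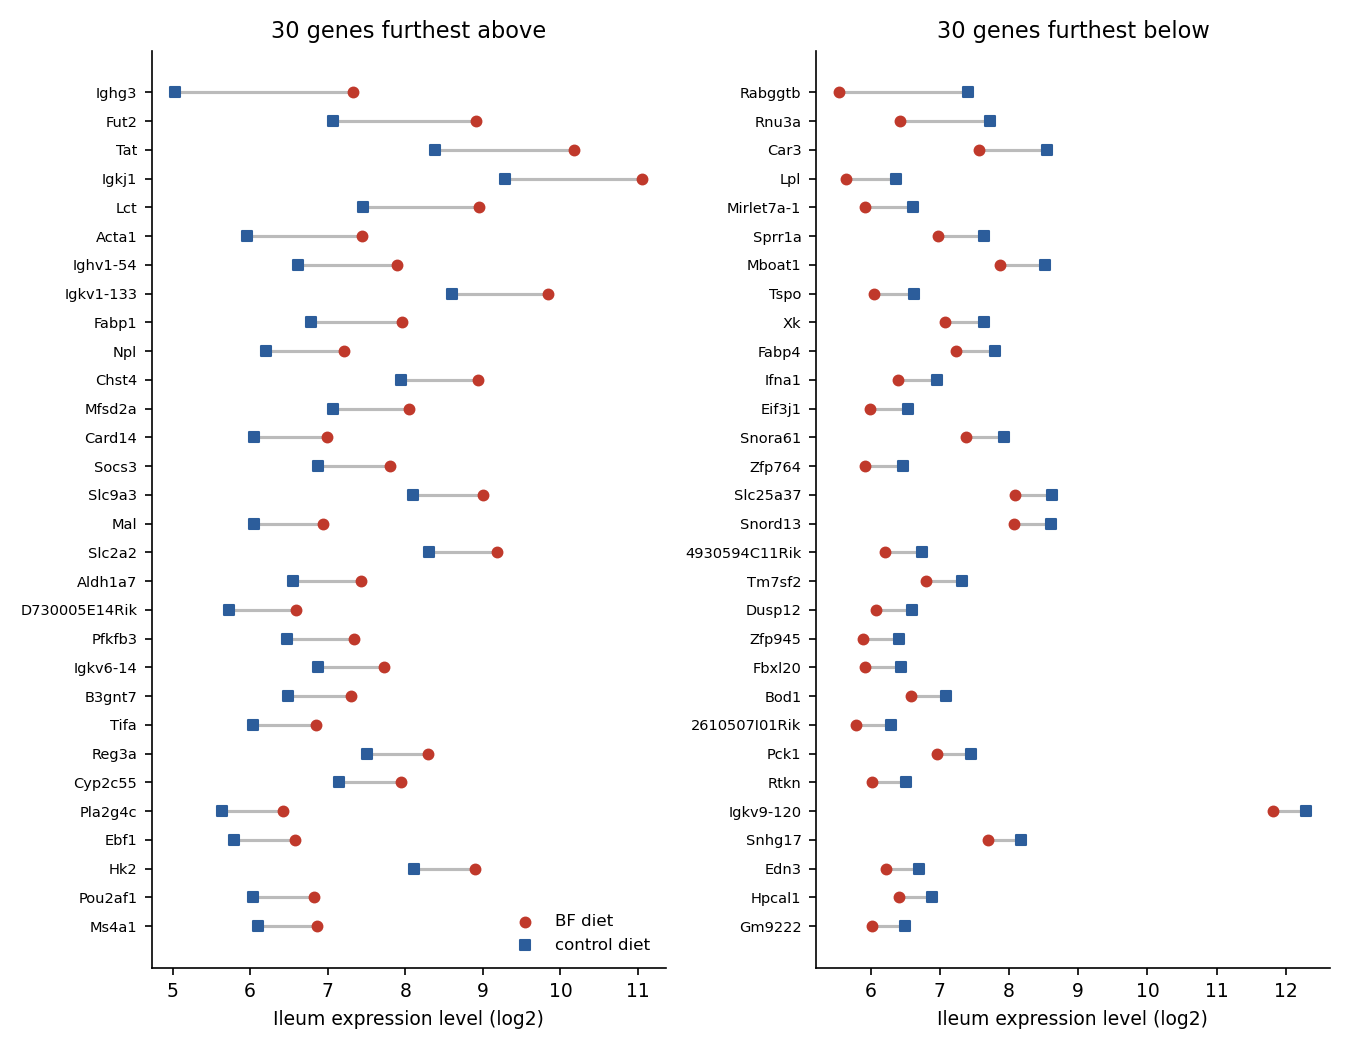
Expression levels in the ileum (log2) are shown for the 30 genes furthest above and the 30 furthest below, with circles for the BF diet and squares for the control diet, 1 pooled array each. Ighg3 has the widest gap above, 7.33 on BF against 5.03 on control, and Rabggtb the widest below, 5.55 on BF against 7.40 on control.

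Immunoglobulin gene segments were the most conspicuous class among the higher genes. Ighg3, the constant region of IgG3, was at 7.33 in the BF group and 5.03 in the control group, the widest difference among the 7920 genes (4.90 fold). Its control value was under the level limit, so Ighg3 was among these genes only through its BF value. The kappa joining segment Igkj1 was at 11.05 in the BF group and 9.29 in the control group (3.40 fold), the heavy chain variable segment Ighv1-54 was at 7.90 on BF and 6.62 on control, and the kappa variable segment Igkv1-133 was at 9.84 on BF and 8.61 on control. Of 18 measured segments, 8 were higher and 2 lower, with a median of 0.23. The 2 lower segments were Igkv9-120, at 11.81 in the BF group and 12.30 in the control group, and Igkv6-23, at 6.57 on BF and 6.98 on control. Segments were thus found past both limits. Variable segments resemble each other closely, so that a probe set may read its relatives. The constant region of IgM, Ighm, was at 12.59 in the BF group and 12.80 in the control group, and Jchain, the joining chain of secreted IgA and IgM, was at 11.23 on BF and 11.06 on control. Both were inside the limits.

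The plasma cell list as a whole had 1 of 8 measured genes past a limit. That gene was Pou2af1, and the median difference was 0.17. The plasma cell factor Xbp1 was at 9.85 in the BF group and 9.67 in the control group, and the plasma cell surface gene Sdc1 was at 6.24 on BF and 6.29 on control. None of the 10 measured genes of the polymeric immunoglobulin and IgA pathway passed a limit. Pigr, the receptor that carries IgA across the epithelium, was at 12.20 in the BF group and 12.29 in the control group.

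B cell markers had the highest share of higher genes of any cell type list with more than 3 measured members. Of 12 measured, 8 were higher and none was lower, and the median was 0.50, against 0.01 over all genes. In the T cell and the type 3 innate lymphoid lists, 2 of 3 measured genes were higher. Ebf1, Fcer2a and Btla were under 6 on the control array and counted as measured only through their BF values. Ebf1, a factor that sets B cell identity and is also at 9.16 in epididymal fat, was at 6.57 in the BF group and 5.79 in the control group. Pou2af1 was at 6.82 in the BF group and 6.04 in the control group, and Ms4a1, which encodes CD20, was at 6.87 on BF and 6.10 on control. The antigen receptor chain Cd79a was at 8.81 in the BF group and 8.20 in the control group (1.52 fold), and its partner Cd79b at 7.01 on BF and 6.54 on control (1.38 fold). The tetraspanin Cd37, the inhibitory receptor Cd22 and the adaptor Bank1 made up the rest of the 8, at 1.56, 1.41 and 1.42 fold. With the 7 markers under the level limit included, all 19 B cell markers on the array had a difference above 0, against 10590 of all 22180 genes. In such bulk samples, more cells of a type and more RNA per cell cannot be told apart.

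Some genes of the cells that neighbour B cells in lymphoid follicles were higher too. Cxcl13, the chemokine that draws B cells into follicles, was at 8.84 in the BF group and 8.16 in the control group (1.59 fold), and Clu, made by follicular dendritic cells among others, was at 8.04 on BF and 7.53 on control. They were the 2 of 8 measured markers of follicular dendritic cells and M cells that were higher, and the median was 0.26. The M cell receptor Gp2 was at 4.14 in the BF group and 4.05 in the control group, near the median of the array. Of 3 measured germinal centre genes Basp1 was higher and Bcl6, the master factor of these cells, was at 6.54 in the BF group and 6.17 in the control group.

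T cell and innate lymphoid lists rested on few measured genes. Cd4 was at 6.95 in the BF group and 6.19 in the control group (1.69 fold), and Cd3e, a chain of the T cell receptor complex, at 7.20 on BF and 6.75 on control (1.37 fold). The third measured T cell gene, Cd3g, differed by 0.26. Among the 14 T cell markers under the level limit the differences ran both ways, with Lat at 5.93 in the BF group and 5.43 in the control group, and Ccr7 at 5.04 on BF and 5.46 on control. Of cytotoxic lymphocyte markers 2 of 4 were higher, the granule protease Gzma at 6.93 in the BF group and 6.50 in the control group and Cd7 at 6.78 on BF and 6.27 on control. Of 3 measured markers of type 3 innate lymphoid cells, Ltb, the lymphotoxin that organizes lymphoid tissue, was at 6.52 in the BF group and 5.98 in the control group, Il1r1 was at 6.57 on BF and 6.04 on control, and Kit differed by -0.08.

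Genes of antigen presentation and of macrophages held few members past the limit. All 5 measured class II genes had a difference above 0 with a median of 0.32, but only H2-Aa, at 9.81 in the BF group and 9.40 in the control group, was past the limit. H2-Ab1 was at 11.51 on BF and 11.16 on control. Macrophage markers had 2 of 11 higher, C1qa at 7.15 in the BF group and 6.69 in the control group and Fcer1g at 7.71 on BF and 7.12 on control, with a median of 0.18. The complement partner C1qc differed by -0.02 and Cd68 by 0.06. A list of genes shared by most white blood cells, compiled with the values known, gave 14 of 28 measured genes higher, none lower and a median of 0.40. Ptprc, which encodes CD45, was at 8.33 in the BF group and 7.80 in the control group (1.45 fold), and Rac2, a GTPase of blood cells, at 8.62 on BF and 8.08 on control. Of the 42 genes of this list on the array, 41 had a difference above 0, against 10590 of all 22180 genes. Since the list was chosen with the values known, its counts and summed level describe its members and are no separate support. The summed level of that list was 12.39 in the BF group and 12.03 in the control group, and that of the B cell list 11.05 on BF and 10.57 on control. The part that the makeup of the tissue pieces had in these differences was not tested.

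**Figure D3:**
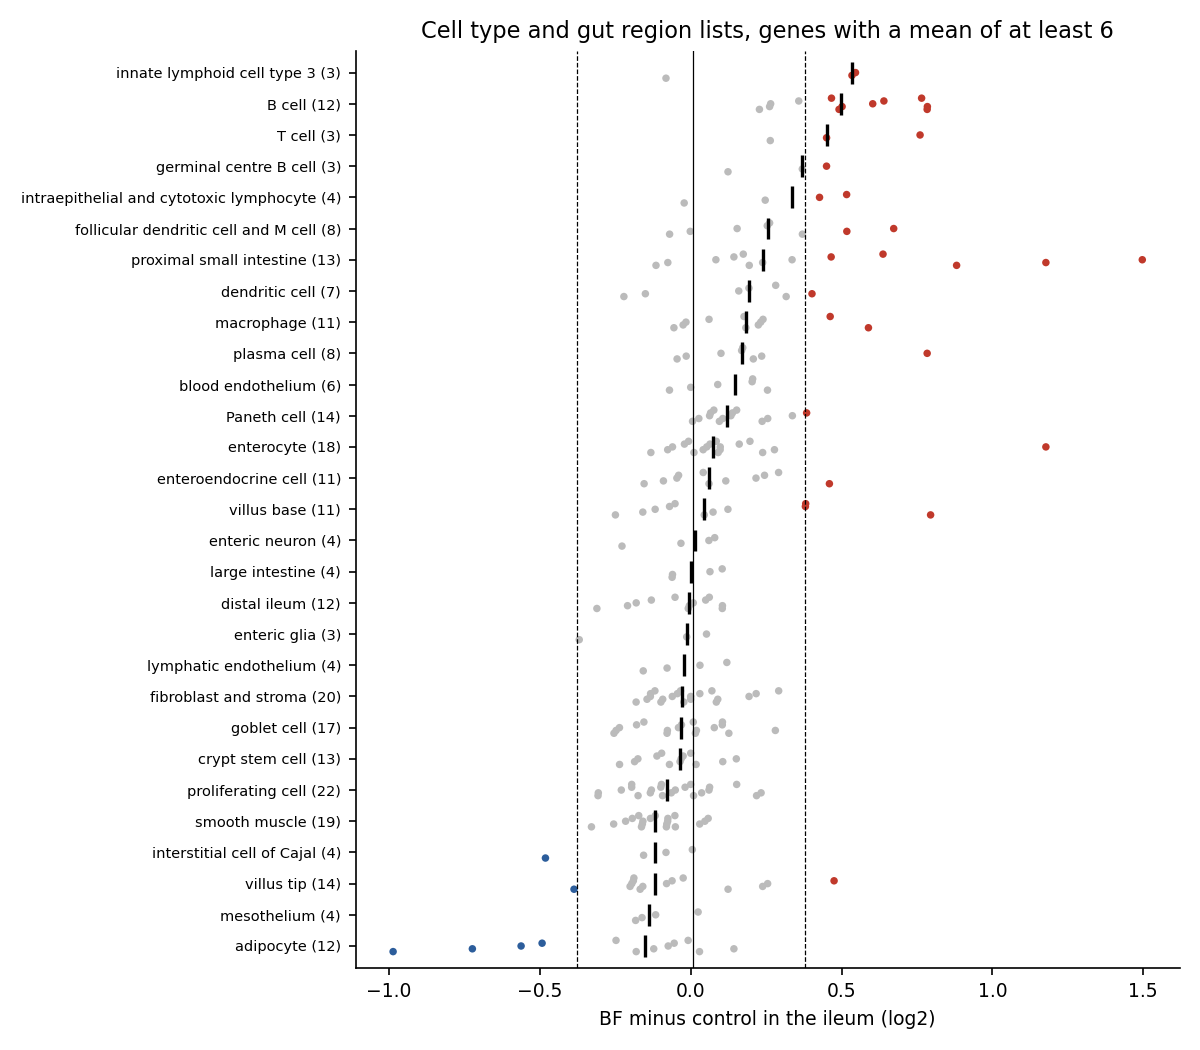
Each point is a measured gene of a cell type or gut region list, placed by its BF minus control difference in the ileum (log2), with the list's median as a black bar, the number of measured genes in brackets and dashed lines at 1.3 fold and 0.77 fold. B cell genes lie right of 0 with a median of 0.50, while the adipocyte list at the bottom holds Car3 at -0.99 and Lpl at -0.72.

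Genes that mark the upper small intestine held several of the higher genes. Of 13 measured, 5 were higher and none was lower, with a median of 0.24. Lct, which encodes lactase on the brush border, was at 8.95 in the BF group and 7.45 in the control group (2.82 fold). Fabp1, the fatty acid-binding protein that prevails in the upper gut, was at 7.96 in the BF group and 6.78 in the control group (2.26 fold). Slc2a2, the glucose and fructose transporter GLUT2, was at 9.18 in the BF group and 8.30 in the control group (1.84 fold), Slc40a1, the iron exporter ferroportin, at 8.61 on BF and 7.98 on control (1.56 fold), and the alcohol dehydrogenase Adh1 at 7.32 on BF and 6.86 on control (1.38 fold). Gata4, a transcription factor of the upper small intestine, was between the limits at 6.24 in the BF group and 6.32 in the control group. Rbp2, which binds retinol, differed by 0.17, and Slc5a1, the sodium-glucose transporter, by -0.12.

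Genes of the distal ileum lay between the limits. None of 12 measured passed a limit, their differences ran between -0.31 and 0.11, and the median was -0.01. The hormone gene Fgf15, which bile acids induce in the ileum, was at 8.75 in the BF group and 8.74 in the control group. The bile acid transport and FXR target list also had none of 12 genes past a limit, with a median of -0.03. Slc51a, a subunit of the transporter that passes bile acids to the blood, was at 10.91 in both groups.

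Sugar handling genes differed singly. Of 12 measured brush border disaccharidases and sugar transporters, Lct, Slc2a2 and Slc5a9 were higher, none was lower and the median was 0.15. Sis, the sucrase-isomaltase, differed by 0.10 and Mgam, the maltase, by 0.07. Within the cell, Hk2, the hexokinase that starts glucose use, was at 8.90 in the BF group and 8.12 in the control group (1.72 fold), Pfkfb3, which makes the activator of phosphofructokinase, at 7.34 on BF and 6.47 on control (1.82 fold), and Fbp1, an enzyme of glucose production, at 6.51 on BF and 5.82 on control (1.61 fold). Pck1, which runs an early step of glucose production and is also a fat cell gene, was at 6.96 in the BF group and 7.45 in the control group (1.41 fold lower). The remaining 17 of 21 glycolysis and fructose genes stayed between the limits, and the list's median was 0.00. Gapdh differed by 0.02 and Pklr by -0.18.

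Tat was the protein-coding gene second furthest above. It encodes tyrosine aminotransferase, which is best known as a glucocorticoid-induced enzyme of the liver. Its level was 10.18 in the BF group and 8.38 in the control group, 3.47 fold higher. None of the other 13 measured amino acid breakdown genes and none of the other 11 measured glucocorticoid-induced genes was past a limit. Their medians with Tat included were -0.12 and -0.03. Amino acid transporters split, with Slc36a1 and Slc7a5 higher (8.01 in the BF group and 7.39 in the control group for Slc36a1, 7.50 on BF and 6.96 on control for Slc7a5) and Slc6a14 lower (10.09 on BF and 10.53 on control). Slc9a3, the sodium-proton exchanger of the brush border, was at 9.0 in the BF group and 8.09 in the control group (1.87 fold).

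Lipid genes differed singly. Fabp1, Apoc3 and Pla2g12b were the 3 higher of 25 measured genes of fatty acid uptake and chylomicron assembly, with no gene lower and a median of 0.06. Apoc3, an apolipoprotein of triglyceride-rich particles, was at 7.40 in the BF group and 6.75 in the control group. Mfsd2a, a carrier that takes lysophosphatidylcholine into cells, was at 8.05 in the BF group and 7.07 in the control group (1.97 fold). In the list of PPAR alpha targets and fatty acid oxidation 4 of 22 were higher, among them Acot12 at 6.29 in the BF group and 5.72 in the control group and Acadl at 9.53 on BF and 9.07 on control, while the carnitine transferase gene Cpt1a differed by -0.06. Cholesterol genes gave 1 higher and 1 lower of 24, with a median of 0.04: the efflux pump Abca1 at 7.87 in the BF group and 7.40 in the control group, and the synthesis enzyme Tm7sf2 at 6.79 on BF and 7.32 on control. None of 15 fatty acid synthesis genes was past a limit. Fasn was at 8.34 in the BF group and 8.29 in the control group, and Scd1 at 7.94 on BF and 7.95 on control.

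Phospholipase A2 genes and drug-metabolizing cytochromes P450 each held a few members past a limit. Of 8 measured phospholipases, Pla2g4c (6.43 in the BF group and 5.64 in the control group), Pla2g12b and Pla2g2a were higher and none was lower, with a median of 0.21. Of 12 measured cytochromes P450, 3 were higher and 2 lower. Cyp2c55 was at 7.94 in the BF group and 7.15 in the control group, Cyp2c65 at 7.97 on BF and 7.44 on control, and Cyp2d26 at 8.94 on BF and 8.42 on control. Cyp2s1 was at 8.19 in the BF group and 8.59 in the control group, and Cyp2j6 at 7.56 on BF and 7.98 on control. Members of such families resemble each other, so a probe set may read more than its own gene.

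Gut hormone genes held 1 member past a limit. Nts, which encodes neurotensin of the ileal enteroendocrine cells, was at 8.84 in the BF group and 8.38 in the control group (1.38 fold), out of 10 measured genes of the hormone and short-chain fatty acid receptor list. Gcg, which encodes GLP-1 and glucagon, was at 8.73 in the BF group and 8.78 in the control group, and Pyy at 8.39 on BF and 8.15 on control. The short-chain fatty acid receptors Ffar2 and Ffar3 were under the level limit, Ffar2 at 4.31 in both groups and Ffar3 at 3.08 in the BF group and 3.28 in the control group.

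Genes of the epithelial framework and of cell division stayed between the limits. No gene was past a limit among 16 tight junction, 13 crypt stem cell, 22 proliferating cell, 37 oxidative phosphorylation and 22 cytosolic ribosomal protein genes, with medians of -0.10, -0.04, -0.08, -0.05 and 0.00. The stem cell gene Olfm4 differed by -0.10 and the proliferation gene Mki67 by 0.00. The muscle coat gave none of 19 smooth muscle genes past a limit and a median of -0.12. Acta1, the skeletal muscle actin, was at 7.45 in the BF group and 5.96 in the control group (2.81 fold). Of 26 skeletal muscle genes listed after this was seen, 21 had a mean under 5, and Ckm, the muscle creatine kinase, was at 5.94 in the BF group and 6.13 in the control group.

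**Figure D4:**
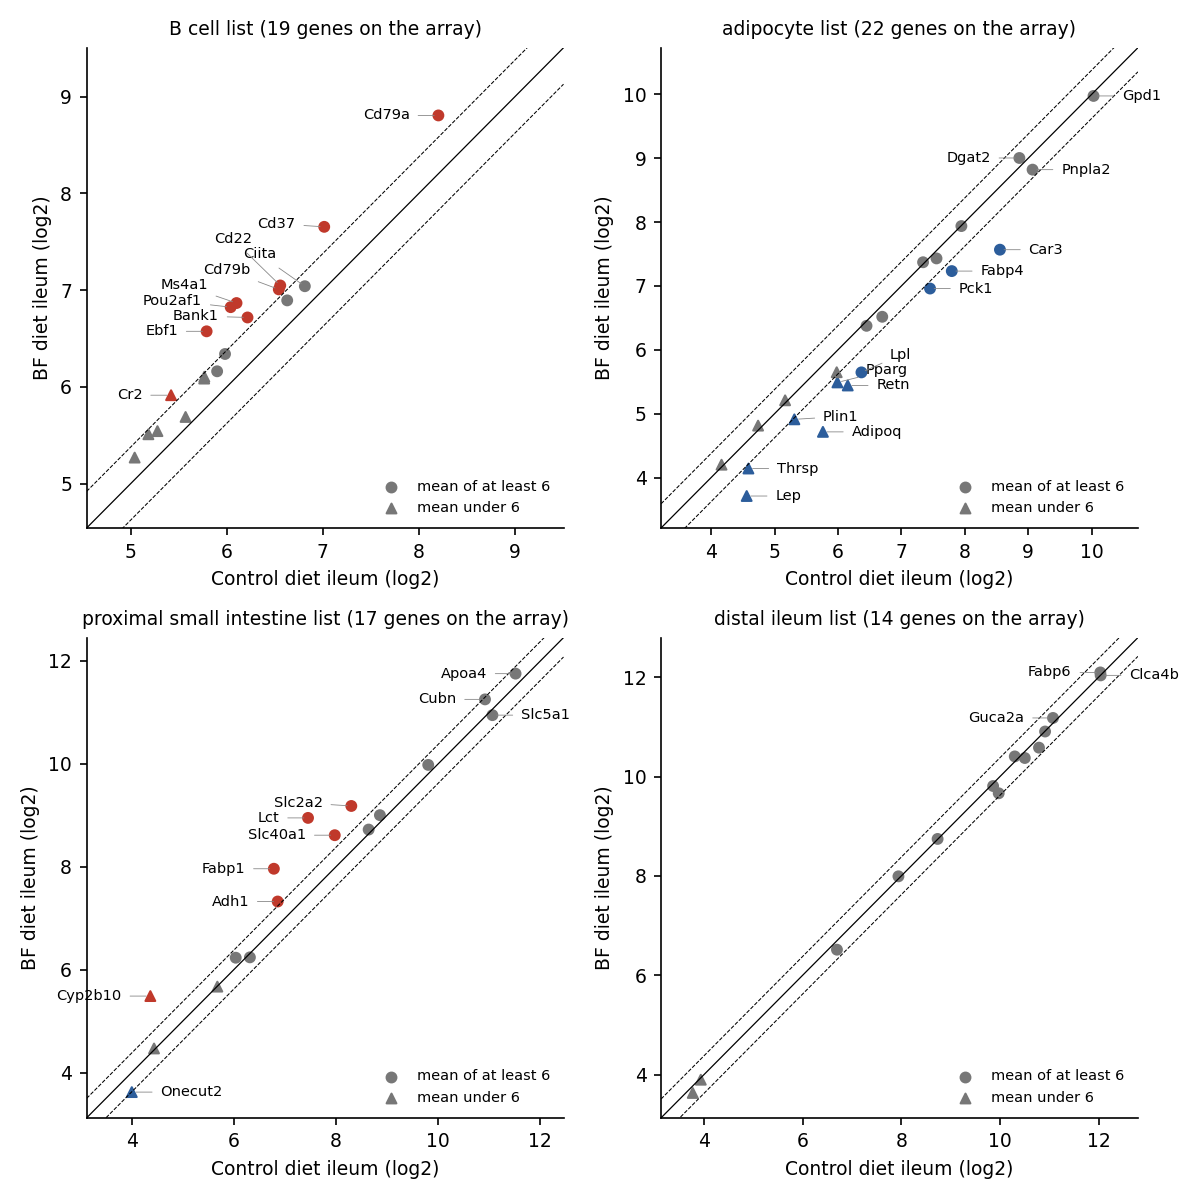
BF diet levels (vertical axis, log2) are plotted against control diet levels (horizontal axis, log2) in the ileum for all genes of the B cell, adipocyte, proximal small intestine and distal ileum lists on the array, with triangles for genes whose mean is under 6, red above 1.3 fold, blue below 0.77 fold and dashed lines at both limits. All 19 B cell genes lie above the diagonal, and no distal ileum gene leaves the limits. Below the lower limit lie 10 of 22 adipocyte genes, against 860 of all 22180 genes on the array.

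The lower genes held some adipocyte markers. Of 12 measured adipocyte markers 4 were lower, none was higher and the median was -0.15. Car3, a carbonic anhydrase at 12.55 in epididymal fat and 12.49 in liver, was at 7.57 in the BF ileum and 8.55 in the control ileum (1.98 fold lower). Lpl, the lipoprotein lipase at 12.16 in epididymal fat, was at 5.65 in the BF ileum and 6.37 in the control ileum, and Fabp4, the fatty acid-binding protein of fat cells, was at 7.23 on BF and 7.79 on control. Pck1 was the fourth, and its level was 11.63 in liver and 10.31 in fat. The other 8 measured markers lay between the limits. Among them Cidec, at 12.12 in fat, differed by -0.12 in the ileum, and Scd1, at 12.36 in fat, by -0.01. The defining fat cell hormones were under the level limit, with Adipoq at 4.71 in the BF group and 5.76 in the control group and Lep at 3.71 on BF and 4.56 on control. Over all 22 adipocyte markers on the array, 10 were below 0.77 fold and none above 1.3 fold. With no limit on the level, 860 of all 22180 genes were below 0.77 fold and 946 above 1.3 fold. Of the 22 markers, 4 had a mean under 5. The summed level of the list was 11.795 in the BF group and 12.005 in the control group. The part of fat attached to the gut pieces in this was not tested. In epididymal fat itself Car3 and Lpl differed by 0.11 and 0.06 between the arrays, of which the BF one has the conflicting labels given above.

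Rabggtb was furthest below among the 7920 genes, at 5.55 in the BF group and 7.40 in the control group (3.61 fold lower). It encodes a subunit of the enzyme that attaches lipid anchors to Rab proteins, and its introns carry small nucleolar RNAs. It was the only one of 15 measured host genes of small nucleolar RNAs past a limit, and the median of these was 0.05. Of 53 measured genes annotated as small nucleolar RNAs 4 were lower and 2 higher, with a median of -0.07. Rnu3a and Snord73b, both lower, are annotated as small nuclear RNAs and are not among these 53. Snord73b was at 10.30 in the BF group and 10.75 in the control group. Rnu3a, a copy of the U3 RNA that cuts the ribosomal RNA precursor, was at 6.42 in the BF group and 7.72 in the control group (2.47 fold lower). Snord13 was at 8.06 in the BF group and 8.60 in the control group, and Snord83b, one of the higher ones, was at 7.45 on BF and 6.71 on control. Proteins of ribosome assembly in the nucleolus, listed with the values known, had 7 of 55 genes higher and 1 lower, with a median of 0.21. Among them Tcof1, which drives ribosomal RNA synthesis, was at 6.95 in the BF group and 6.39 in the control group.

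Of 36 measured microRNA genes 1 was higher and 2 were lower, and their median difference was -0.03. The array probes the gene and does not tell the arms of the hairpin apart. Mirlet7a-1 was at 5.91 in the BF group and 6.61 in the control group, Mir761 at 6.20 on BF and 6.64 on control, and Mir194-2, one of the genes of miR-194, which is abundant in intestinal epithelium, at 6.37 on BF and 5.89 on control. Mature sequences from RefSeq follow because these are the 3 microRNA genes past a limit. The values are those of gene probe sets and do not give the level of the mature strands. Mir194-1 was between the limits, at 7.06 in the BF group and 6.69 in the control group. For Mirlet7a-1 and Mir194-2 only the 5p arm is shown, and the 3p arm of each is left out. The capitals are the seed, bases 2 to 8, and no seed is shared. Mirlet7a-1 lies on the minus strand of chromosome 13, Mir194-2 on the plus strand of chromosome 19 and Mir761 on the plus strand of chromosome 4.
let-7a-5p: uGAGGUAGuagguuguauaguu
miR-194-5p: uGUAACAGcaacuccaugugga
miR-761: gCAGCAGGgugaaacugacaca

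Other genes far below were of several kinds. Sprr1a, a cornified envelope protein that epithelia make under stress, was at 6.97 in the BF group and 7.64 in the control group, and Mboat1, a lysophospholipid acyltransferase, was at 7.86 on BF and 8.52 on control. Tspo, a cholesterol-binding protein of mitochondria, was at 6.04 in the BF group and 6.62 in the control group. Slc25a37, the iron carrier of mitochondria, was at 8.08 in the BF group and 8.61 in the control group, and the transferrin receptor Tfrc was at 8.44 on BF and 8.90 on control. The metallothionein and metal transport list had 1 of 10 measured genes higher (Slc40a1), 1 lower (Tfrc) and a median of -0.01.

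**Figure D5:**
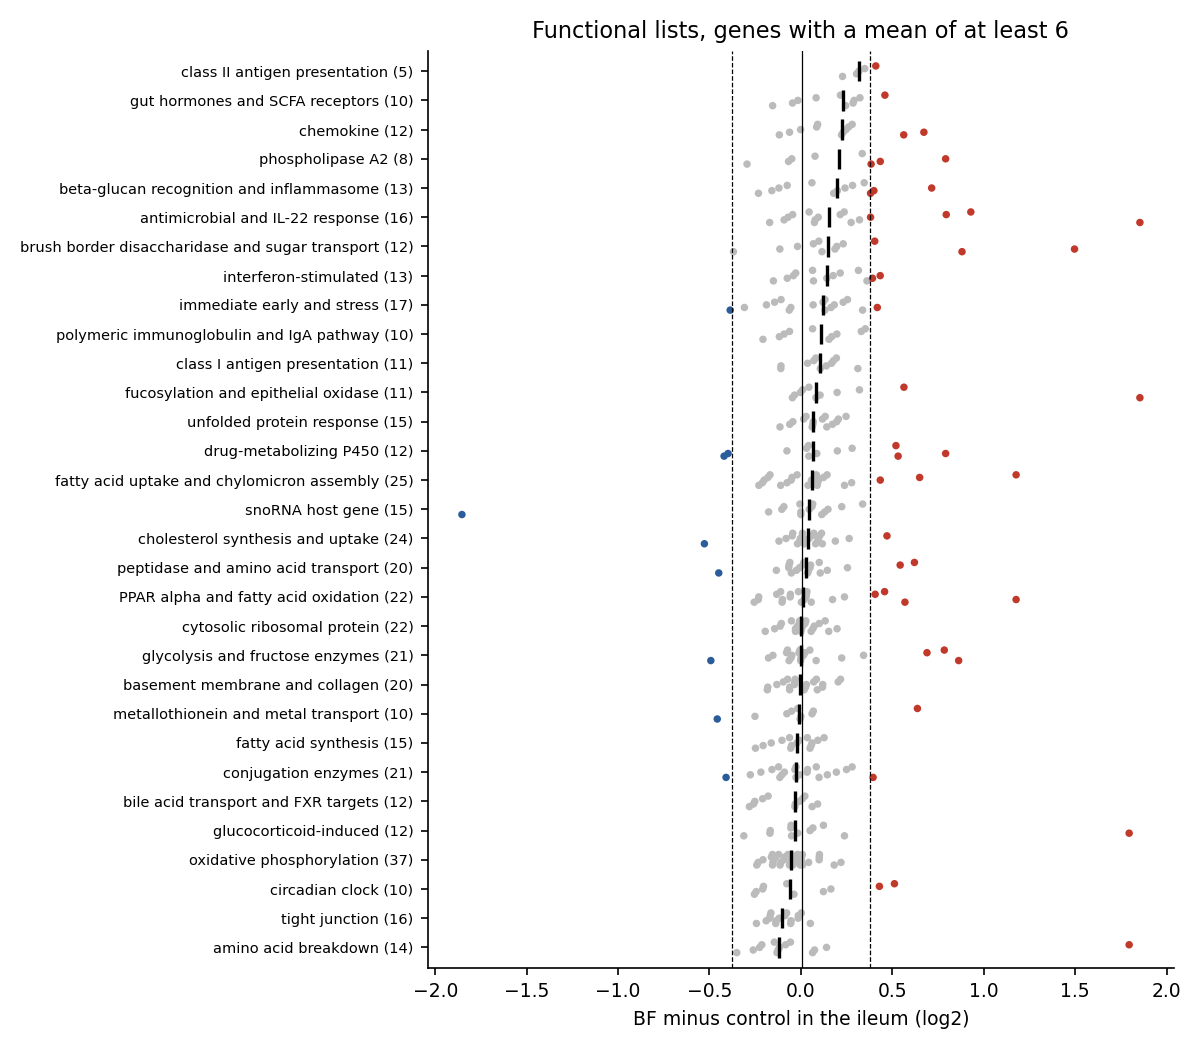
Each point is a measured gene of a functional list, placed by its BF minus control difference in the ileum (log2), with medians as black bars, measured genes in brackets and dashed lines at 1.3 fold and 0.77 fold. Most lists centre near 0 with at most 5 members past a limit, such as Fut2 at 1.85 and Tat at 1.80, and class II antigen presentation has the highest median at 0.32.

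The largest difference on the array outside the level limit belonged to Car1, a carbonic anhydrase of the large intestine. It was at 3.46 in the BF group and 7.80 in the control group, a difference of -4.34, and was named here after its values were seen as a list member. Its mean of 5.63 kept it out of the 7920 genes. None of the 4 measured genes of the large intestine list was past a limit. Slc26a3 and Mep1b among them are also on the enterocyte list, so they do not set the large intestine apart from the ileum. Of the 16 genes of that list on the array, 10 had a mean under 5 and 2 were lower, Car1 and Ly6g, with none higher. The colonic factor Hoxb13 was at 3.69 in the BF group and 3.42 in the control group, and the chloride exchanger Slc26a3 was at 9.79 on BF and 9.73 on control. Whether the control pool held tissue of the large intestine was not tested. Hamp, the iron hormone hepcidin, also lay outside the level limit and was named after its values were seen, at 5.38 in the BF group and 3.0 in the control group.

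The genes past a limit were placed by their levels in the other organs, which share no array with the ileum. Of the 213 higher genes, 56 (26.3%) had a mean under 5 both in liver and in fat, against 27 of the 82 lower genes (32.9%) and 683 of all 7920 (8.62%). A level in fat more than 2 above that in liver was found for 42 higher genes (19.7%) and 7 lower genes (8.54%), against 9.49% of all genes. A level in liver more than 2 above that in fat was found for 18 higher genes (8.45%), such as Tat, Fabp1 and Slc2a2, and for 3 lower genes (3.66%), against 3.85% of all. A level of at least 10 in fat was found for 4 higher genes (1.88%) and 4 lower genes (4.88%), against 2.22% of all. Those 4 lower genes were Car3, Lpl, Fabp4 and Pck1, the lower members of the adipocyte list.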

How the data were processed

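Ileum, liver and epididymal fat RNA was pooled from 10 mice per diet and run on 1 array per pool (6 arrays). The authors made the deposited log2 values with robust multichip analysis in Affymetrix Expression Console 1.3 at default settings. Which arrays were normalized together is not given in the sources used here. The arrays hold 41345 probe sets. Exactly 1 gene symbol was listed for 23521 of them, of which 23328 were matched to a RefSeq gene. For a gene with several probe sets reaching an ileum mean of at least 6, the brightest by its 6-array mean was taken.

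BF minus control was taken per gene, with Python 3.11.15 and pandas 2.3.3. With 1 array per group no test, SD or p was computed, and precision is limited by having so few arrays. The counting was tested on simulated data. Named genes were the 30 furthest each way, list members past a limit, up to 6 more per list by level, q-PCR genes and defining markers. Of the gene lists, 65 were written from general knowledge and 5 after seeing the values. Members and lists were chosen with earlier results of these data known. Centring, quantile normalization, level limits, fold limits and the choice of probe set were varied.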

Additional observations from a re-analysis of the deposited data

Results flagged for a closer look

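A total of 38 genes past a limit in the ileum were past the opposite limit in the liver or in epididymal fat at a mean of at least 6 there, and the 20 of them in the named lists are given here. Each organ has 1 array per diet, so the difference between organs was not tested. Of the 295 genes past an ileum limit, 157 reached that mean in fat, with 28 past the opposite limit and 10 past the same one, and 102 reached it in the liver, with 10 past the opposite limit and 4 past the same one. Over all genes, 4.98% of 5741 were higher and 6.64% lower in fat, and 2.74% of 4312 were higher and 3.08% lower in the liver. The labels of the BF fat array conflict on its diet, and with them turned the fat differences would change sign.

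Of the 20, 10 white blood cell genes were higher in the BF ileum and lower in the BF fat pad, which is how they were chosen. The BF minus control differences were 0.58 in the ileum and -2.20 in fat for Cd52, 0.40 (ileum) and -1.24 (fat) for Itgax, 0.54 (ileum) and -0.87 (fat) for Ptprc, 0.47 (ileum) and -0.86 (fat) for Cybb, 0.51 (ileum) and -0.80 (fat) for Prkcb, 0.59 (ileum) and -0.73 (fat) for Fcer1g, 0.50 (ileum) and -0.69 (fat) for Lcp1, 0.46 (ileum) and -0.64 (fat) for C1qa, 0.64 (ileum) and -0.41 (fat) for Cd37 and 0.54 (ileum) and -0.42 (fat) for Runx1. The macrophage list had a median difference over all its genes of 0.18 in the ileum and -0.73 in fat, while in fat the medians were 0.16 for the B cell list and 0.03 for the T cell list. Cd79a, Cd4 and Cd3e, higher in the ileum, had fat differences of 0.56, 0.54 and 0.52, at fat means under 5. Basp1 (0.45 in the ileum and -0.69 in fat), Casp4 (0.40 in the ileum and -0.65 in fat) and Npl (1.01 in the ileum and -0.40 in fat) had the same arrangement, and Pck1 had the reverse one (-0.49 in the ileum and 1.12 in fat).

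The BF minus control differences of the other genes were 0.87 (ileum) and -0.44 (liver) for Aldh1a7, 0.72 (ileum) and -0.48 (liver) for Myd88, 0.41 (ileum) and -0.40 (liver) for Nol6, 0.41 (ileum) and -0.41 (liver) for Vnn1, -1.85 (ileum) and 0.45 (liver) for Rabggtb, which was -0.61 in fat, and -0.53 (ileum) and 0.62 (liver) for Snord13.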

How the results depend on the processing

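The counts of 213 higher and 82 lower genes moved by more than 1.5 times with the level limit and the fold limit. They were 375 and 210 at a mean of at least 5, 101 and 37 at a mean of at least 7, 946 and 860 with no limit on the level, 63 and 7 at 1.5 fold, and 10 and 2 at 2 fold. Quantile normalization of the 6 arrays together left 135 higher and 75 lower genes, 134 and 60 of them among the main calls. Centring, quantile normalization of the ileum arrays alone, other probe set rules and counting protein-coding genes only (added after seeing the data) gave 192 to 213 higher and 65 to 96 lower genes. Of 144 named genes past a limit, none of those still measured changed direction under any setting run on single genes, which leaves out the count of protein-coding genes. The level and fold limits do not alter the difference of a probe set, and median centring moved it by only 0.01. Under these settings the kept direction was therefore given in advance and says nothing on stability. At a mean of at least 7, 67 of the 144 were still measured, and under quantile normalization of the 6 arrays 106 were, of which 8 lost the call. Of the 143 still measured under quantile normalization of the ileum arrays 8 lost it. Of the 144, 94 lost it under 1.5 fold and 132 under 2 fold. No paired analysis was possible because each group is 1 pooled array. For the same reason no replicate could be left out.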
